A study of Mus musculus with 6 samples.

Results

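The probes described here are array oligonucleotides whose own 60 bases contain a match to the seed of miR-26. A microRNA guides the RNA-induced silencing complex to mRNAs mainly through its seed, the bases near its 5′ end, and mRNAs with a matching site, usually in the 3′-UTR, are destabilized or translated less. The most extensive of the common site types is the 8mer, the complement of nucleotides 2 to 8 followed by an A. The 7mer-m8 lacks that A, and the 7mer-A1 has it but lacks the match to nucleotide 8. Any non-control probe with 1 of these matches on the strand of the mRNA was taken. This gave 532 of 55681 probes, of which 97 carried an 8mer, 143 a 7mer-m8 and 292 a 7mer-A1.

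The cells were an SLP-65-/- LAT-/- mouse pre-B cell line that is arrested at the pre-B cell stage, depends on the pre-B cell receptor and proliferates in IL-7. The deletion of both adaptor genes, the retroviral transduction, the puromycin selection and the culture with IL-7 were common to all 6 arrays. An empty control vector, a construct labelled hsa-miR-26a-2 (miR-26a below) and a sponge, a transcript with repeated binding sites that sequesters the miR-26 family, were each measured on 2 arrays, labelled replicates 1 and 2 and called biological replicates in the methods. All arrays came from 1 line, and no array of a scrambled sponge was analysed here. The arrays do not measure mature miR-26, so the dose of the microRNA and the action of the sponge could not be checked on them.

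Labelled cRNA, which is antisense, was hybridized to probes written in the sense of the mRNA. In the sequences below the capitals mark, in the microRNAs, the seed (nucleotides 2 to 8) and, in the probes, the complementary site. Both mature microRNAs are RefSeq sequences on build GRCm38.p6, and they are shown because every site was defined from them.
mmu-miR-26a-5p: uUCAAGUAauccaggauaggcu
mmu-miR-26b-5p: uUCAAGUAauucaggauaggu
They share the seed and differ by C11U and C21U, counted from the 5′ end of miR-26a. The same miR-26a sequence lies at chr9:119031811-119031832 and chr10:126995543-126995564, and miR-26b at chr1:74394324-74394344, all on the + strand. A site for one is therefore a site for the other.

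The following stretches of probe sequence come from the probes with a gene symbol that fell furthest with miR-26a in each class. Asb2, the 8mer probe that rose, and Stam, a 7mer-m8 probe that was low with the sponge, are added, so that the sites can be compared with the values given further on. The first 7 carry an 8mer.
Adam19: catctatgcaaaaTACTTGAAtggg
Gmds: tcacatactcatttTACTTGAAa
Prkcq: cattTACTTGAAagat
Llph: ttaccagtagtactTACTTGAAgtgt
Hmga1: ttcttatttgcagtTACTTGAAtaaa
Vbp1: ttgttctcctttagTACTTGAAgggc
Asb2: gcaggctaatcagaTACTTGAAatat
The next 3 carry a 7mer-m8, in which the base after the site is not an A.
Mex3b: tatgtaggtgacgtTACTTGAgctt
Gstm4: ttcccaatttgcctTACTTGAttga
Stam: ttcactcttcagttTACTTGAgttt
The last 3 carry a 7mer-A1, in which the base before the site does not pair with nucleotide 8.
Trp53inp1: gttttctctcatcaACTTGAAactt
Irs2: cttcctgtcccatcACTTGAA
Casz1: ctgaatatttttccACTTGAAttta
In the genome of the array design, mm9, 4 of these probes lie at chr11:45960740-45960799 (Adam19, + strand), chr13:31911535-31911594 (Gmds, − strand), chr10:119669028-119669087 (Llph, + strand) and chr4:11101174-11101233 (Trp53inp1, + strand). Whether a site lies in a 3′-UTR or in coding sequence was not analysed here. A probe reports a whole mRNA, so a probe without a site may report an mRNA that has one elsewhere.

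Between 28823 and 29800 of 59305 spots per array were well above background. All 10 pre-B cell markers searched were detected on all 6 arrays, and the log2 of their summed signal was 18.91 and 19.02 for the control, 18.84 and 18.94 with miR-26a and 18.90 and 19.05 with the sponge. Vpreb1 and Cd79b, the brightest of the 10, make up most of this sum, so it says little about dimmer markers. Of the 10 markers, 2 were lower with miR-26a, Rag1 (−2.47) and Blnk (−0.49). Of 9 myeloid markers 4 were detected on all arrays, with Lyz2, Mpo, Cd14, S100a8 and S100a9 not, and 1 was lower (Fcgr3, −0.51). Of 5 T cell markers Cd3e, Cd4 and Lat were detected on all arrays, and Cd3g and Cd8a were not. The probes of Blnk, which encodes SLP-65, and of Lat gave signal on every array although both genes are deleted in the line, and whether these probes lie in the deleted parts was not analysed here. No marker probe carried a site.

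Of the 532 probes with a site, 199 were bright enough to be tested (37.4%, against 36.2% of all probes), 38 with an 8mer, 51 with a 7mer-m8 and 110 with a 7mer-A1. Each of the 199 was detected above background on all 6 arrays, and 192 exceeded a signal of 50 on all 6. The remaining 333 are not described further, and 246 of these were not well above background on any array. Of the tested probes 168 named 167 genes, and 31 had no gene symbol. Changes are differences of quantile-normalized log2 signals, and a probe was called when its Benjamini-Hochberg adjusted p in limma was under 0.05 over all 20168 tested probes, with the experiment as a block.

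With miR-26a, 33 of the 199 site probes were lower than in the control (16.6%) and 4 were higher (2.01%). Over all tested probes 5.14% were called lower and 4.5% higher. Of the 8mer probes 13 of 38 were lower (34.2%) and 1 higher, and their median change was −0.22 against 0.01 for all probes. Of the 7mer-m8 probes 6 of 51 were lower (11.8%, median −0.05), and of the 7mer-A1 probes 14 of 110 (12.7%, median −0.10). No test of the difference between classes was made.

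The median change of the 8mer probes was negative in both experiments, with values of −0.22 and −0.24, and the middle 50% of these probes lay between −0.40 and −0.10. Of the 38 8mer probes 32 had a negative change, and 30 were negative in both experiments (78.9%, against 32.4% of all probes). Both miR-26a arrays lay below both control arrays for 27 of 38 8mer probes (71.1%), 22 of 51 7mer-m8 probes and 52 of 110 7mer-A1 probes, where 22.9% of all tested probes did so. Both lay above both control arrays for 4, 7 and 16 probes of these classes, against 26.5% of all probes.

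Shorter matches and matches on the opposite strand were described in the same way. Probes whose best match was a 6mer, ACTTGA, the complement of nucleotides 2 to 7, were lower in 20 of 204 cases (9.80%) with a median of −0.05. Probes with only the offset 6mer TACTTG, the complement of nucleotides 3 to 8, were lower in 10 of 214 cases (4.67%) and higher in 9, with a median of 0.06. Where the 7mer words stood on the opposite strand, as TCAAGTA or TTCAAGT, 5 of 163 probes were lower (3.07%) and 8 higher, with a median of 0.01. These last shares lie near or below the 5.14% of all probes.

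The number of site probes called depended on the block and on single arrays. Without the experiment as a block, 5 were lower and 0 higher, while 1.18% of all probes were then lower. Fewer site probes, and fewer of all probes, were called whichever array was left out. The sponge arrays enter through the shared spread. The 8mer median was −0.26 without control replicate 1, −0.21 without control replicate 2 and −0.27 without either miR-26a array. At an unadjusted p under 0.05 in limma, 73 site probes were lower (36.7%) and 8 higher, where 13% of all probes were lower and 14.3% higher. Of the falls and rises against the control named below by gene, those of Trp53inp1 and Llph stayed past the limit whichever array was left out, and those of Adam19 and Gmds in 5 of 6 such fits. Those of Tars2, Abhd17b, Gyg and Notch2 were lost in all 6. The 5 called without the block were Trp53inp1, Llph, Hmga1, Mex3b and an unnamed 8mer probe on chr8. Among the 192 site probes above a signal of 50 on all 6 arrays, 30 were lower (15.6%), 12 of 35 with an 8mer among them, and 3 higher, against 4.94% and 4.40% of the 19316 such probes.

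The 8mer probes that fell reported genes of many kinds. Adam19, a membrane-anchored metalloprotease, had log2 signals of 9.596 and 9.995 on the control arrays, 8.17 and 9.06 with miR-26a, and 9.989 and 10.76 with the sponge. Its miR-26a arrays lay below the controls and its sponge arrays did not overlap the miR-26a arrays. The fall was −1.18 (SE 0.13, adjusted p = 0.00892, limma). Gmds, which makes the GDP-fucose precursor from GDP-mannose, had 12.73 and 12.51 in the control, 11.70 and 11.43 with miR-26a and 13.10 and 12.67 with the sponge. It fell by 1.05 (SE 0.08, adjusted p = 0.00481, limma), and its groups did not overlap between miR-26a and the others.

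Llph stood at 10.39 and 10.25 in the control and at 9.38 and 9.20 with miR-26a. Its change was −1.03 (SE 0.07, adjusted p = 0.00441, limma). Prkcq, protein kinase C theta, was dim, with 5.95 and 5.77 in the control and 5.15 and 4.49 with miR-26a, a difference of −1.04. It is given as a description, because it passed the signal minimum only through the control and sponge arrays, and with normexp background correction the difference was −0.37. Hmga1, an architectural chromatin protein, was among the brightest, with 16.73 and 16.80 in the control, 16.03 and 16.10 with miR-26a and 16.83 and 16.86 with the sponge. Its change was −0.70 in each of both experiments (SE 0.07, adjusted p = 0.00698, limma).

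The other named 8mer falls were smaller. Vbp1, a prefoldin subunit that helps fold actin and tubulin, fell by 0.48, Cks2, a small subunit of cyclin-dependent kinases, by 0.42, and Tars2, the mitochondrial threonyl-tRNA synthetase, by 0.40. Abhd17b, a protein depalmitoylase named Fam108b in the array design, fell by 0.40, and Gyg, glycogenin, the primer of glycogen synthesis, by 0.38. Their adjusted p lay between 0.0231 and 0.0355 (limma). Cks2 was the only one of these 5 with a negative sponge value as well (−0.11, unadjusted p = 0.15 in limma). A second Gyg probe overlaps the first, holds the same site and gave −0.34 (adjusted p = 0.0488, limma), so the 2 are not separate measurements of a site. The remaining called 8mer falls, named after their values were seen, were Brap (−0.32) and the lowest of the class, an unnamed probe at chr8:59994598-59994657 in a lincRNA interval, at −1.23.

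That unnamed probe had 10.32 and 10.16 in the control, 9.004 and 9.012 with miR-26a, and 10.36 and 10.31 with the sponge. Its miR-26a arrays lay more than 1 log2 unit below all the others. Over all site probes, the 168 with a gene symbol included 30 lower and 3 higher, with a median of −0.14. The 19 in lincRNA intervals included 3 lower and 1 higher, with a median of −0.04.

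The largest fall of any site probe belonged to a 7mer-A1. Trp53inp1, a p53-inducible nuclear protein, had 12.52 and 12.73 in the control, 10.74 and 11.27 with miR-26a and 12.61 and 12.87 with the sponge. The groups of miR-26a and control were apart by more than their spread, and the change was −1.61 (SE 0.10, adjusted p = 0.00317, limma). Irs2, an adaptor of insulin and cytokine receptors, had 10.15 and 10.41 in the control and 9.21 and 9.32 with miR-26a. It fell by 1.02 (SE 0.11, adjusted p = 0.00869, limma). Casz1, a zinc finger transcription factor, was dim, at 6.28 and 6.57 in the control and 5.17 and 5.92 with miR-26a, and fell by 0.88 (SE 0.13, adjusted p = 0.0184, limma), or by 0.41 with normexp background correction.

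The other named 7mer-A1 probes were those of Pfdn4, another prefoldin subunit (−0.68), Gp2, a GPI-anchored glycoprotein (−0.66), and Ralgds, an exchange factor for Ral GTPases (−0.61). Pfdn4 and Vbp1 thus encode parts of 1 chaperone complex, a description of 2 named probes only. For 7mer-A1 sites at the first base of a probe the preceding base is not in the probe, so 9 of the 292 could be 8mers in the mRNA.

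Of the 6 7mer-m8 probes called lower, 5 had a gene symbol. Mex3b, an RNA-binding protein, had 10.41 on both control arrays, 9.61 and 9.52 with miR-26a and 10.74 and 10.55 with the sponge. The miR-26a arrays were the lowest and the sponge arrays the highest, and the miR-26a change was −0.85 (SE 0.08, adjusted p = 0.00663, limma). Gstm4, a glutathione S-transferase, differed by −0.67, but it passed the signal minimum only through the control and sponge arrays, the difference was −0.34 with normexp, and its sponge value was also negative (−0.27). Its probe spans chr3:107846495-107846847 on mm9, so the 60 bases cross a splice junction. The others were D030056L22Rik (−0.47), Usp3, a histone deubiquitinase (−0.43), and Lman1, a cargo receptor between endoplasmic reticulum and Golgi (−0.43).

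The 4 site probes that rose came from all 3 classes. Asb2, a substrate receptor of cullin ubiquitin ligases, had 8.79 and 9.23 in the control, 9.85 and 10.30 with miR-26a and 8.41 and 9.27 with the sponge. Its groups of miR-26a and control did not overlap, and its change was 1.07 (SE 0.12, adjusted p = 0.0101, limma). It carries a full 8mer, and its rise was nearly as large as the fall of Adam19. Tmbim1 (7mer-m8) rose by 0.56 and Notch2, a receptor of the Notch family (7mer-A1), by 0.34. The last, an unnamed 7mer-A1 probe, rose by 0.54. It was dim, with unnormalized signals of 52.7 and 65.1 in the control, 84.9 and 81.1 with miR-26a, and 44.3 and 57.1 with the sponge.

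An 8mer in the probe did not by itself go with a fall. Among the 38, Stmn1, a microtubule-destabilizing protein, changed by −0.04 (adjusted p = 0.772, limma) with one of the brightest signals of the class (control mean 15.90). Ep400, a chromatin remodeller, changed by −0.05 (adjusted p = 0.711, limma). Usp15, a deubiquitinase, was just outside the limit at −0.34 (adjusted p = 0.0528, limma), as was Ube4b at −0.40 (adjusted p = 0.060, limma). These 4 were picked after their values were seen.

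The place of the site within the probe was set against the change. With the site starting in the first 18 bases, 5 of 58 probes were lower (8.62%, median −0.08). In the middle stretch, bases 19 to 36, 14 of 67 were lower (20.9%, median −0.10), and from base 37 on 14 of 74 (18.9%, median −0.15). Among 8mer probes the 3 stretches held 3 of 10, 5 of 14 and 5 of 14 lower and medians of −0.29, −0.17 and −0.22. For 7mer-m8 probes the counts were 0 of 14, 2 of 22 and 4 of 15 lower, and for 7mer-A1 probes 2 of 34, 7 of 31 and 5 of 45. Each stretch holds few called probes, and no test of position was made.

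The bases around the site were examined next. Sites with more than 60% A and T within 15 bases on each side gave 15 of 89 lower (16.9%) and a median of −0.15, and the others 18 of 110 (16.4%) and −0.10. A complement to nucleotides 13 to 16 of miR-26a upstream of the site, as in Vbp1 and Irs2, was found in 11 probes, of which 4 were lower (36.4%, median −0.19). Of the 147 probes with enough flank and no such complement 26 were lower (17.7%, median −0.14). The 8mer probes made up 3 of the 11 and 30 of the 147. Where the pairing ran on without a break through nucleotide 9, as in Gmds, Llph and Hmga1, 8 of 23 were lower (34.8%), but the median over the same 23 was −0.06. Where it ended at nucleotide 8, 11 of 62 were lower (17.7%, median −0.18). The 8mer probes made up 6 of the 23 and 32 of the 62, and a 7mer-A1 cannot be in either set. The 4 probes with runs past nucleotide 9 included 0 lower, and Hacd1, with the longest, changed by 0.02. The sets of 11 and 23 hold few called probes, and no test of these properties was made.

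The change was also set against brightness. With all tested probes divided by control signal into 3 equal parts, 8 of 71 dim, 9 of 68 middle and 16 of 60 bright site probes were lower (11.3%, 13.2% and 26.7%). Over all probes the same parts gave 4.95%, 6.29% and 4.16%. Median control log2 signals were 10.63 for 8mer probes, 9.49 for 7mer-m8, 9.30 for 7mer-A1 and 9.80 for all tested probes, so the 8mer probes were also the brightest class, and the part of brightness in their larger share was not tested. Site probes were also richer in A and T, with a median GC content of 38.3% among those tested against 43.3% for all, and removing a GC trend left 35 lower and 4 higher.

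For 71 site probes another tested probe of the same gene held no seed match. The median change was −0.14 for the probes with a site and −0.07 for the others, and 46 of 71 site probes were lower than the mean of their partners. By class the 2 medians were −0.19 and −0.17 for 8mer, −0.05 and −0.04 for 7mer-m8 and −0.15 and −0.08 for 7mer-A1. Of the 71 site probes 13 fell, and the partners' mean was below 0 for 12 of these, as it was for 45 of all 71. For 5 of the 13 a partner fell too. The 13 were picked by the call of the site probe alone, so the differences within these pairs depend in part on that choice. For Trp53inp1 the site-free probe fell by 1.22, and for Hmga1 by 0.91, more than the probe with the site (0.70). Usp3 gave −0.43 with and −0.55 without the site, and Ralgds −0.61 and −0.52. In these genes the fall was seen at both places of the mRNA.

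Other pairs were further apart. Llph gave −1.03 with the site and −0.25 without, Casz1 −0.88 and −0.25, and Cab39l, a scaffold of the kinase LKB1, −0.55 and a mean of −0.04 over 2 partners. For Lman1 the partner had the other sign (−0.43 against 0.21, the latter with an adjusted p of 0.228 in limma). Mex3b lay between, with −0.85 and −0.49. Differences within a pair were not tested, and different probes of a gene can report different transcripts.

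The list of genes connected with miR-26 in reviews or in the study was hardly covered by site probes. Of its 36 genes all were on the array, 29 were tested with 52 probes, and only Hmga1 and Trp53inp1 had a probe with a 7mer or 8mer. In this list 15 of 29 genes had a probe that was lower (51.7%, against 6.64% of all 10857 tested genes) and 0 one that was higher (against 5.94%). The list had 1.79 tested probes per gene and all genes 1.36. Of list genes with 1 tested probe 3 of 12 had it lower (25%, against 6.04% of such genes), and of those with more 12 of 17 had at least 1 lower (70.6%, against 8.09%). The median over the 52 probes was −0.35 against 0.01 for all tested probes. Some of these genes were picked by the study from the same arrays, so the list is not independent evidence. Probes with only a 6mer were found for Fbxl19, an F-box protein, and Ccne1, cyclin E1. The Fbxl19 probe with the 6mer fell by 1.11 and the one without by 1.00. For Ccne1 the probe with the 6mer gave −0.39 (adjusted p = 0.0874, limma) and the one without −0.60.

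With the sponge, no site probe was called against the control, where 0% of all probes were called lower and 0.00992% higher (2 probes, limma). At an unadjusted p under 0.05 in limma, 29 site probes were higher (14.6%) and 13 lower (6.53%), against 7.38% and 8.72% of all tested probes. The lower ones were 4 of 38 8mer probes (10.5%), 6 of 51 7mer-m8 (11.8%) and 3 of 110 7mer-A1 (2.73%). The higher ones were 6 (15.8%), 9 (17.6%) and 14 (12.7%) of these classes. Without the block 8 site probes were higher and 8 lower at this limit, and in the unpaired test 8 and 7. The median change was 0.06 over all site probes, 0.09 for 8mer, 0.08 for 7mer-m8 and 0.04 for 7mer-A1, against 0.0048 for all probes. Of the 199, 102 were positive in both experiments (51.3%, against 33.7% of all). The 8mer median was 0.09 in one experiment and 0.04 in the other, and both sponge arrays lay above both control arrays for 15 of 38 8mer probes (39.5%, against 17.3% of all). Over all 199 site probes, both lay above both control arrays for 57 (28.6%) and below them for 32 (16.1%, against 20.4% of all). For the words on the opposite strand both lay above for 37 of 163 (22.7%) and below for 27 (16.6%). Leaving out sponge replicate 1 lowered the 8mer median to 0.04. Leaving out control replicate 1 lowered it to 0.05, with fewer site probes higher at the unadjusted limit. The comparisons of miR-26a and of the sponge use the same control arrays.

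With the sponge, the median was 0.02 for the 6mer, −0.0026 for the offset 6mer and 0.04 for the words on the opposite strand, the last the same as for 7mer-A1. Removing a GC trend left 18 site probes higher at the unadjusted limit in place of 29. None of the site probes named next passed the adjustment, and they are given as values.

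Ubtd2, a ubiquitin-domain protein (7mer-m8), had 6.99 and 6.88 in the control and 7.85 and 7.21 with the sponge, a difference of 0.59 (SE 0.20, adjusted p = 0.269, limma), which was 0.24 without sponge replicate 1 and 0.94 without sponge replicate 2. The sponge arrays lay above the controls but differed from each other by more than the lower of them did from the controls. Adam19 differed by 0.58 (SE 0.13, adjusted p = 0.221, limma), with 9.989 on one sponge array just below the higher control array at 9.995, so the groups overlapped, and the difference was 0.36 without control replicate 2. Tmem161b (7mer-m8) differed by 0.45 (SE 0.09, adjusted p = 0.221, limma), with 7.70 and 7.77 in the control, 7.72 and 7.77 with miR-26a, and 8.28 and 8.08 with the sponge. Its miR-26a and control arrays differed by 0.01 on average, and the sponge arrays stood above both. A Tmem161b probe without a seed match differed by 0.0019 with the sponge. The others were Dubr, a long non-coding RNA (0.47, or 0.30 without control replicate 2 and 0.26 with normexp), and Xkrx (0.39, or 0.26 without control replicate 1 and 0.22 without sponge replicate 1 or with normexp).

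In the other direction Stam, an endosomal sorting protein (7mer-m8), had the lowest unadjusted p of the named sponge values (0.000307, adjusted p = 0.182, limma). It had 8.17 and 8.28 in the control, 8.31 and 8.41 with miR-26a and 7.68 and 7.73 with the sponge, a difference of −0.53. Its sponge arrays were the lowest of the 6. A Stam probe without a seed match had the other sign with the sponge (0.13). H2ac1, a histone H2A named Hist1h2aa in the design, differed by −0.41 and Gatad2b, a subunit of the NuRD complex, by −0.28, the latter with an 8mer and a difference of −0.16 without sponge replicate 1.

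The miR-26a and sponge arrays were also set directly against each other. With miR-26a, 57 of 199 site probes were lower than with the sponge (28.6%) and 9 higher, where 8.49% of all probes were lower and 8.28% higher. By class 17 of 38 8mer probes were lower (44.7%, median −0.31), 14 of 51 7mer-m8 (27.5%, median −0.18) and 26 of 110 7mer-A1 (23.6%, median −0.14), against a median of 0.02 over all probes. The 6mer probes were lower in 34 of 204 cases (16.7%). The offset 6mer was lower in 13 and higher in 23 of 214, and the words on the opposite strand were lower in 13 and higher in 13 of 163. Both miR-26a arrays lay below both sponge arrays for 109 of the 199 (54.8%, against 22.9% of all) and above them for 28 (14.1%, against 28% of all). This comparison uses no control array in its estimate, but its values follow from the same miR-26a and sponge arrays as the others. It does not tell whether a difference came from the one or the other construct.

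Without the block 22 site probes were lower in this comparison (11.1%, against 3.13% of all probes) and 2 higher (against 1.81% of all). Fewer site probes, and fewer of all probes, were called whichever array was left out. The 8mer median then lay between −0.37 and −0.28. Adam19 showed the largest difference of any site probe, −1.76 (adjusted p = 0.0029, limma), followed by Trp53inp1 at −1.74. Among genes not named above for miR-26a against control, Erich1 differed by −0.57, Pik3c2a, a class II phosphoinositide 3-kinase, by −0.55 (−0.33 with normexp), and Sbno1 by −0.54. Erich1 (−0.41, adjusted p = 0.0406, limma) and Sbno1 (−0.49, adjusted p = 0.0198, limma) were also called lower with miR-26a against the control. Usp15 differed by −0.56 (adjusted p = 0.0115, limma), with 11.56 and 11.48 in the control, 11.21 and 11.15 with miR-26a and 11.86 and 11.62 with the sponge, so its 3 groups kept the order miR-26a, control, sponge without overlap. Pik3c2a was not called against the control in either direction (−0.23 with miR-26a, 0.32 with the sponge), and its control arrays at 6.57 and 6.24 overlapped the sponge arrays at 6.90 and 6.55. A Pik3c2a probe without a seed match gave −0.04 with the sponge against the control and −0.07 with miR-26a against the sponge. For Sbno1 such a probe gave −0.33 with miR-26a against the sponge.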

How the data were processed

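RNA of 6 samples was measured on Agilent single-colour mouse 60-mer arrays. The deposited scanner files give each spot's background-subtracted intensity, from Feature Extraction (10.7.3.1 in the headers, 10.7.1.1 in the labels), and the authors also deposited quantile-normalized intensity values, used as an alternative. The methods describe quantile normalization, log2 transformation and normalization to the control of each experiment. Here the processed signals of all spots were made to share 1 distribution by quantiles, put on the log2 scale and averaged per probe. Control and flagged spots were left out, but a probe with all spots flagged kept its value. A probe was tested if any array had it well above background and 4 or more had it over 50, because the methods state the array number unclearly. limma 3.58.1 (R 4.3.3) was fitted to all 6 arrays with group and experiment, with empirical Bayes moderation and Benjamini-Hochberg adjustment over 20168 probes, and was tested on simulated data. Tables were handled with Python 3.11.15, numpy 2.4.6 and pandas 2.3.3.

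Sites were sought in the probe sequences as exact matches, and their classes were set by the bases inside the probe. Gene symbols were matched through RefSeq accessions, symbols or synonyms for 316 of 532 probes. Coordinates are those of the array design (mm9). All arrays shared 1 slide and 1 scan day. The experiment was taken from the replicate numbers. Deviations from the group means correlated across probes between arrays of the same number (0.38 for miR-26a with control, 0.59 for sponge with control, 0.45 for sponge with miR-26a). Control titles quote other accessions and may come from earlier work, so the pairing rests on the methods. Whether replicates were separate transductions is not given in the sources used here, so p-values measure the spread between these samples. The precision is limited by 2 arrays per group.

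The probes and the gene lists were chosen with earlier results of these data known. Named were, against the control with miR-26a, up to 10 8mer, 8 7mer-m8 and 6 7mer-A1 falls and 4 rises, for the sponge the 5 highest and 3 lowest at an unadjusted p under 0.05, and for miR-26a against sponge 5 further falls. All named probes have a gene symbol, 1 probe per gene and class and the same direction in both experiments, and probes named outside this rule are marked in the text. Alternatives were other scalings, filters and tests, a GC correction, array weights, averaging per gene and leaving out each array.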

Additional observations from a re-analysis of the deposited data

How the results depend on the processing

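Arrays of the same replicate number were treated as pairs. Without the replicate block, 5 site probes were lower (2.51%, against 1.18% of all probes) and 0 higher with miR-26a against control. With miR-26a against sponge, 22 were then lower (11.1%, against 3.13% of all probes) and 2 higher (against 1.81%). With no filter, with the 2 log ratios alone or with an unpaired test, 0 site probes and 0 of all probes were called in any comparison. Leaving out single arrays gave 4 to 25 lower and 0 to 3 higher against the control, and 10 to 48 lower and 1 to 6 higher against the sponge. The count for the sponge was 0 in every setting run. No other scaling, filter or weight moved these counts by over 1.5 times.

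The 8mer median with miR-26a moved to −0.20 with 75th percentile scaling, −0.20 with normexp, −0.11 with no filter, −0.25 with a signal above 50 on 2 arrays and −0.19 with probes of a gene averaged. With no filter the medians were 0.0061 for 7mer-m8 and −0.011 for 7mer-A1. For the sponge, the 7mer-m8 median was 0.12 with 75th percentile scaling, 0.074 with normexp, 0.077 with the authors' values, 0.022 with no filter and 0.057 with a GC trend removed, the 7mer-A1 median 0.076 with 75th percentile scaling and 0.011 with no filter, and the 8mer median 0.025 with no filter. Against the sponge the medians with no filter were −0.041, −0.011 and −0.017 (8mer, 7mer-m8, 7mer-A1), and 7mer-A1 stood at −0.11 with a GC trend removed. Leaving out single arrays gave, with miR-26a against control, 8mer medians of −0.27 to −0.21 and 7mer-m8 medians of −0.13 to −0.053, for the sponge 0.043 to 0.089 (8mer), 0.043 to 0.083 (7mer-m8) and 0.034 to 0.071 (7mer-A1), and for 7mer-A1 against the sponge −0.15 to −0.11. With 6 stretches in place of 3, the lowest median by site position was −0.19. The cause of these movements was not tested, except that with no filter the dim probes enter. Of the named changes, those of Prkcq, Casz1, Gstm4, Pik3c2a, Dubr and Xkrx, all dim, moved by over 1.5 times with normexp. No named probe changed direction in any setting run, and of the 29 named results that were called, 22 lost their call without the block and 7 kept it. With 2 arrays per group, small changes are not measured.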
